A study of Mus musculus with 15 samples.

Results

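The 10 libraries described here are those of the diet model of nonalcoholic steatohepatitis (5 livers) and of the control group (5 livers), taken by their column names from a series of 15 mouse liver RNA libraries. The model mice ate a diet with 60% of its energy from fat, 20% from protein and 20% from carbohydrate and with 0.2% cholesterol, and drank water with 42 g/L of sugar, of which 55% was sucrose and 45% fructose. They stayed on it for 20 weeks and received saline by mouth each day after week 12, alongside a group of the same diet that was given a bile powder and is not used here. The labels call the other group control and state neither its diet nor whether it was given saline, so that diet, sugar water and dosing cannot be told apart here. They also give no strain, sex, age or time of day for either group, and do not say that the libraries of a group came from separately housed animals, so the p-values measure the spread between these 5 and 5 livers.

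Steatohepatitis is a fatty liver with inflammation and cell injury. Hepatocytes store surplus fatty acids as droplets, and their secretory load and the fat itself can set off the unfolded protein response, in which the endoplasmic reticulum (ER) makes more chaperones. The acute-phase response is another program of the same cells: interleukin-6 and interleukin-1 from macrophages act through STAT3, C/EBP and NF-kappa-B on hepatocytes, which then secrete serum amyloid A, haptoglobin, orosomucoids and fibrinogen into the blood.

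Each library rested on 35395712 to 38257777 fragments, and the values are the authors' FPKM (fragments scaled to gene length and to sequencing depth). The hepatocyte marker Alb, which encodes albumin, lay between 21140 and 50920 FPKM, and all 15 hepatocyte markers passed the filter. In a principal component analysis the control libraries lay between -22.8 and -18.9 on component 1 (53.5% of the variance) and the model libraries between 13.8 and 26.1. Component 2 (12%) set a single library apart: model 1_4 lay at 24.1 and the other 9 between -12.6 and 7.03. Fragments of the 25 listed acute-phase genes made up 9.97% of model 1_4 and 2.25% to 3.6% of each of the other 9 libraries. Control 2_1 held skeletal muscle transcripts: Acta1, the skeletal muscle actin, stood at 120.3 FPKM there and at no more than 0.0176 in the other 9. Results that rest on either library are given with and without it.

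The filter, a mean over these 10 libraries of 1 FPKM or more, left 9498 genes, of which 3529 (37.2%) passed an adjusted p of 0.05 by limma, 2767 (29.1%) higher and 762 (8.02%) lower in the model. Without model 1_4 the counts were 3430 (36.1%), 2722 (28.7%) and 708 (7.45%). Over all tested genes the fold changes had a median of 0.119 on the log2 scale, against which gene lists are read. Counts of list members are read against the shares of all genes, 29.1% higher and 8.02% lower. Without overlap between the groups, 19.0% of all genes were higher and 5.11% lower in the model. Median-ratio scaling moved it to -0.0122 and gave 1418 rises and 1659 falls, and quantile scaling gave 1465 rises and 1602 falls. Fold changes are differences of mean log2(FPKM + 1) with their standard errors (SE), which understate changes of genes near 1 FPKM. Values per library follow the order 1_1, 1_5, 2_1, 2_2, 3_4 for control and 1_1, 1_4, 2_1, 2_3, 3_4 for model, and means are given ± SD (n = 5).

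Acute-phase genes were higher in the model livers, with a single liver far above the rest. Of the 24 tested members of that list, 13 rose and 0 fell, with a median log2 fold change of 0.96, where 29.1% of all genes rose and the median was 0.119. For 11 of the 13 the groups did not overlap, and for Cp and Serpina3m they did; of all genes 19.0% did not overlap and were higher in the model. Every one of the 24 had its highest value of the 10 libraries in model 1_4, as did 1464 of all 9498 genes tested. Among the 5 model libraries alone, 20.9% of all genes tested were highest there. Model 1_4 was singled out for its high acute-phase level, so its place in this list is a description and not a test. Without model 1_4 all 24 fold changes were smaller, the median was 0.64, and 16 members passed the test: the same 13 and Apcs, Itih4 and Steap4. Leaving out any other single library instead moved the median to between 0.9 and 1.1.

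Serum amyloid A shows how far that liver stood from its group. Saa2 encodes a secreted acute-phase apolipoprotein and was at 14.3, 20.0, 9.48, 14.7 and 10.7 FPKM in the control livers and at 122, 14970, 117, 194 and 61.6 FPKM in the model livers. The groups did not overlap, and the highest of the other model livers, 2_3, was closer to the controls than to 1_4. The log2 fold change was 4.41 ± 1.18 (SE, adjusted p = 0.0129) with all 10 libraries and 3.001 (adjusted p = 7.03e-05) without model 1_4. The neighbouring Saa1 was at 21.9, 50.7, 30.4, 26.6 and 16.0 FPKM in control and at 144, 9049, 121, 304 and 74.7 FPKM in model livers. Its log2 fold change fell from 3.54 to 2.34 without model 1_4, while its adjusted p fell from 0.0204 to 0.0011. Saa1 was also lost with all 10 libraries under robust eBayes (adjusted p = 0.0523) and with no filter on low genes (0.0519). For both genes the fold was smaller and the adjusted p lower without that liver. Over the list the median SE was 0.329 with it and 0.159 without it, and over all genes 0.0918 and 0.0932.

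Saa1 and Saa2 lie side by side on chromosome 7 of GRCm38 (46740497 to 46742980 on the minus strand and 46751790 to 46754313 on the plus strand), with Saa4 (46727998 to 46732603) and Saa3 (46711998 to 46715700) next to them. Their first annotated transcripts were identical at 94.4% of 606 aligned bases, so how the authors' counting shared fragments between both is uncertain. The 250 bases before their RefSeq start sites (GRCm38.p6) are printed because both genes had the same pattern over the libraries; capitals mark a match to the C/EBP motif TTGCNNAA (N is any base).
Saa1, chr7:46742981-46743230, minus strand: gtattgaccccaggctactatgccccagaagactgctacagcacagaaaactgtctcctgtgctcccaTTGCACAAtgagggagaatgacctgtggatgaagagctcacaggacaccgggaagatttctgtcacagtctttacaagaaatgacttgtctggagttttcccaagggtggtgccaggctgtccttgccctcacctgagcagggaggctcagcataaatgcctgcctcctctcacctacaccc
Saa2, chr7:46751583-46751832, plus strand: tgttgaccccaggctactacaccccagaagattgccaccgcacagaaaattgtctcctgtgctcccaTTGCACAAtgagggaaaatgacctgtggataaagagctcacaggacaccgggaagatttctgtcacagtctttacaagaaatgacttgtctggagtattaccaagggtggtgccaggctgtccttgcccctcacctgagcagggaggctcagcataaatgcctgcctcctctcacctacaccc
The windows were identical at 95.6% of 249 aligned bases and held the motif 182 and 183 bases before the start. Searched on both strands, it occurred in the same window of 13 of 20 acute-phase genes with a RefSeq entry (65.0%) and of 10.8% of 27025 genes. The NF-kappa-B motif, GGG and TTTCC with 2 bases of any kind between, was in 3 of the 20 (15%, against 1.65% of all genes) and the STAT motif TTCNNNGAA in 5 (25.0%, against 8.13%). With all 10 libraries, 10 of the 20 genes rose. They included 8 of the 13 with the C/EBP motif, of which Ltf was not tested, and 2 of the 3 with the NF-kappa-B motif. Of the 5 with the STAT motif 0 rose with all 10 libraries. Without model 1_4, Apcs, Itih4 and Steap4 of these 5 were called higher (adjusted p 0.0113, 0.016 and 0.0423 by limma). These motifs were chosen after the values had been seen, and a match is a description of the letters, not of binding.

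Among the other secreted acute-phase proteins, some had every model liver above the controls and some had 1_4 far above all the rest. Lcn2, which encodes the iron-siderophore binding lipocalin 2, was at 3.31, 3.32, 3.89, 2.21 and 1.99 FPKM in control and 33.4, 2236, 35.3, 92.3 and 19.4 FPKM in model livers. It was the second largest rise of all genes both with model 1_4 (log2 fold change 4.51, adjusted p = 0.00511) and without it (3.34, adjusted p = 9.31e-05). On recovered fragment counts with voom it missed the threshold (adjusted p = 0.0586). Hp, the haemoglobin scavenger haptoglobin, stood at 1698, 1656, 1755, 1776 and 1887 FPKM in control and at 2572, 9493, 2876, 3566 and 2719 FPKM in model livers. Every model liver was above every control, and the fold change was 1.07 with and 0.73 without model 1_4. Saa3 (1.89, 1.49 without 1_4), Saa4 (1.10, 0.91), Lbp, the lipopolysaccharide-binding protein (0.94, 0.84), and Il1rn, the interleukin-1 receptor antagonist (1.84, 1.59), also rose under both. Orm2, an orosomucoid, was at 8.76, 17.7, 11.5, 8.35 and 4.19 FPKM in control and 29.8, 632, 31.0, 50.2 and 19.8 FPKM in model livers, with fold changes of 2.51 with and 1.65 without 1_4. It lost its call without control 3_4 (2.27, adjusted p = 0.0536), with no filter (0.0596) and under robust eBayes (0.0595). The orosomucoid transcripts are 86.5% to 91.0% identical, so their separate values are uncertain.

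For other acute-phase genes no group difference was called, and 1_4 lay far above the rest for most of them. Orm1 was at 1022, 905, 902, 844 and 665 FPKM in control and 601, 4372, 639, 1170 and 673 FPKM in model livers, and its fold change turned from 0.30 (adjusted p = 0.627) to -0.21 (adjusted p = 0.4). Hpx, the haem carrier hemopexin, was at 2052, 2131, 2355, 2156 and 2361 FPKM in control and 2032, 8856, 2306, 3064 and 2152 FPKM in model livers. The fibrinogen chains Fga, Fgb and Fgg had fold changes of 0.35, 0.14 and 0.29 with model 1_4 and 0.14, -0.05 and 0.10 without it, none of them called. Fgb was at 2551, 5487, 2505, 3498 and 2797 FPKM in the model livers, against 2729, 2751, 3201, 2659 and 3315 in the control livers. Crp, the C-reactive protein gene, differed little in any liver, with 206.4 to 258.0 FPKM in control and 234.9 to 284.8 FPKM in model livers. Apcs, the serum amyloid P gene (56.7, 68.3, 58.9, 57.5 and 44.4 FPKM in control, 82.8, 658, 84.7, 152 and 77.1 in model), missed the threshold with 1_4 (log2 fold change 1.30, adjusted p = 0.0547) and passed it without (0.74, adjusted p = 0.0113). It also passed without model 1_1 (1.48, adjusted p = 0.0441), 2_1 (1.48, 0.0496) or 3_4 (1.51, 0.0383). After 1_4, model 2_3 was the highest model liver for Saa1, Saa2, Lcn2, Hp, Orm1, Orm2, Hpx and Apcs.

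**Figure D1:**
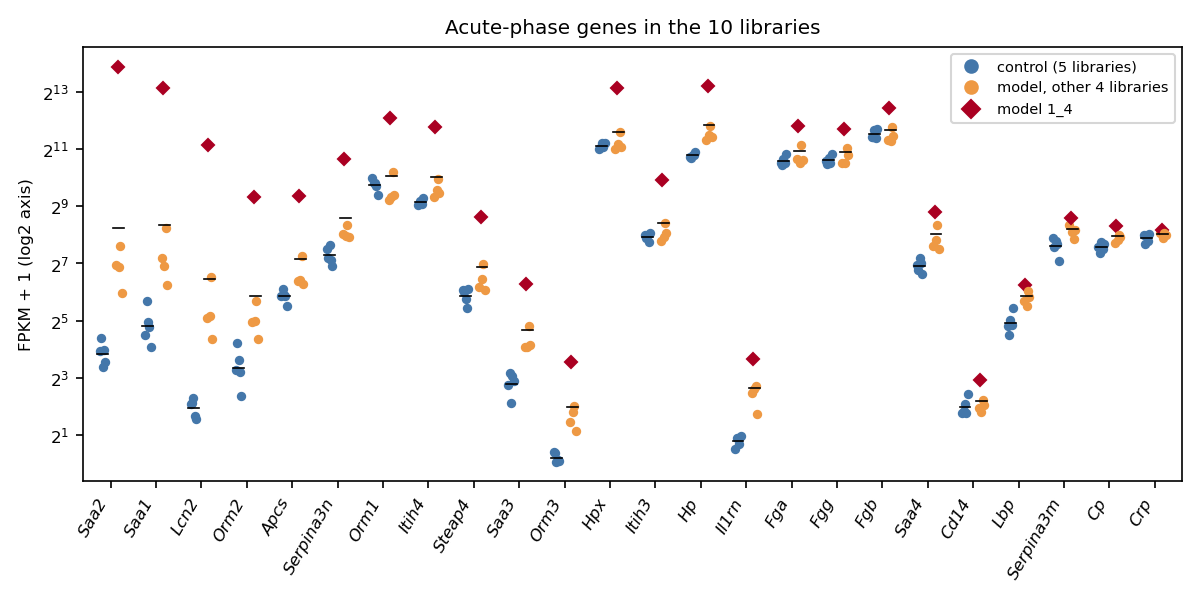
FPKM + 1 (log2 axis) of the 24 tested acute-phase genes in each of the 10 libraries, ordered by how far model 1_4 lay above the other model livers; points are libraries and bars the means on the log2 scale. Model 1_4 (diamonds) is the highest of the 10 libraries for every gene, while the other 4 model livers lie near the controls for Orm1, Hpx, Fgb and Crp.

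Across the whole transcriptome model 1_4 moved few fold changes far. Leaving it out moved the log2 fold change by over 0.5 in 15 of 9498 genes and by over 1 in 4, compared with 17 and 6 for control 2_1 and 0 to 7 genes over 0.5 for each of the other 8 libraries. Calls for 369 genes were lost (264 higher, 105 lower) and 270 were gained, while leaving out another library lost 388 to 728 and gained 51 to 266. The median absolute move of a fold change was 0.0287, against 0.019 to 0.0312 for the other libraries. No called gene changed sign when any single library was left out. Of the 258 called genes with a fold change beyond 1 on the log2 scale, 229 were still called and beyond 1 without it, where 252 were. The 50 largest rises were all still called, 6 of them with a fold change smaller by over 0.5, and 48 of the 50 largest falls were still called.

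The 15 genes were, in order of the shift, Saa2, Saa1, Lcn2, LOC118568312, Lars2, Orm2, Mt2, Mt1, Spp1, Gadd45g, Apcs, Prtn3, Serpina3n, Orm1 and Myc; they were singled out by this shift, after the values had been seen. All were higher in 1_4 than in the other 4 model livers on average, and 9 were called both with and without it. Mt2 and Mt1 encode metallothioneins, which bind zinc and copper. Mt2 was at 4.53, 13.5, 8.35, 10.04 and 12.7 FPKM in control and 83.2, 853, 60.9, 50.1 and 32.6 FPKM in model livers (log2 fold change 3.21, 2.42 without 1_4), and Mt1 at 7.84, 29.9, 19.3, 18.8 and 22.5 and 85.7, 617, 61.5, 48.6 and 37.8 FPKM (2.26, 1.57). Both metallothioneins rose with or without that liver. Serpina3n, a secreted serpin, rose by 1.30 with it (adjusted p = 0.0383), a call lost without control 1_1, 1_5, 2_2 or 3_4 or model 2_3 (adjusted p 0.0558 to 0.0767), with either rescaling (0.0551 and 0.0725), with no filter (0.0854) and under robust eBayes (0.074). LOC118568312 was at 148, 7715, 189, 246 and 417 FPKM in the model livers and Lars2, the mitochondrial leucyl-tRNA synthetase gene, at 11.3, 318, 10.1, 13.3 and 30.1 FPKM, and neither was called. Both together took 1.39% of the fragments of model 1_4 and 0.0288% to 0.0804% in the other 9 libraries. Spp1, the osteopontin gene, stood at 251.8 FPKM in model 1_4, at 21.1 to 30.2 in the other model livers and at 21 to 23.5 in control livers, and was called only without 1_4 (adjusted p = 0.0345, log2 fold change 0.31).

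Among the 15, Gadd45g and Myc fell in the model and fell further without 1_4. Gadd45g, a stress and growth arrest gene, was at 56.0, 33.2, 45.4, 61.5 and 141 FPKM in control and 6.79, 43.3, 3.65, 7.35 and 4.69 FPKM in model livers, and its fold change went from -2.67 to -3.23 without 1_4. Myc was at 9.91 to 38.6 FPKM in control livers, at 16.5 in model 1_4 and at 1.36 to 3.07 in the other model livers (log2 fold change -2.19, -2.70 without 1_4). Fabp5, a fatty acid binding protein, was at 112, 126, 48.9, 50.5 and 28.4 FPKM in control and 6.78, 36.6, 6.47, 12.5 and 4.86 FPKM in model livers, and fell by 2.52 on the log2 scale with 1_4 and by 2.96 without it.

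**Figure D2:**
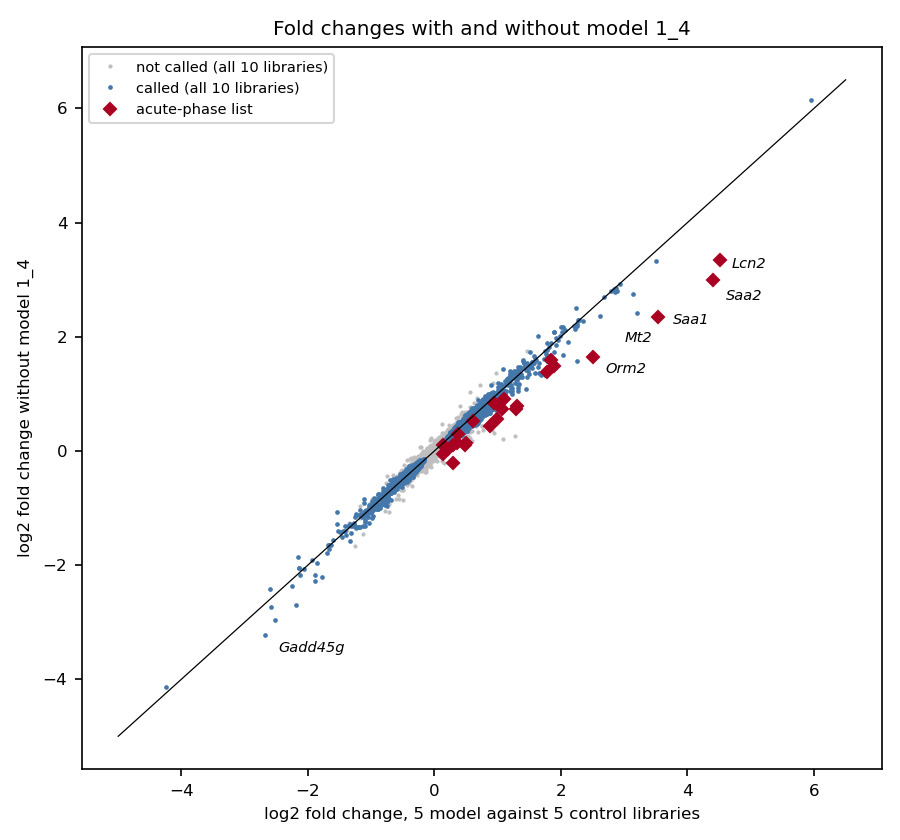
Log2 fold change of the 9498 tested genes with all 5 model livers (x axis) and without model 1_4 (y axis); the line marks equal values. The 24 acute-phase genes (diamonds) all lie below the line, and most other genes lie close to it.

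**Figure D3:**
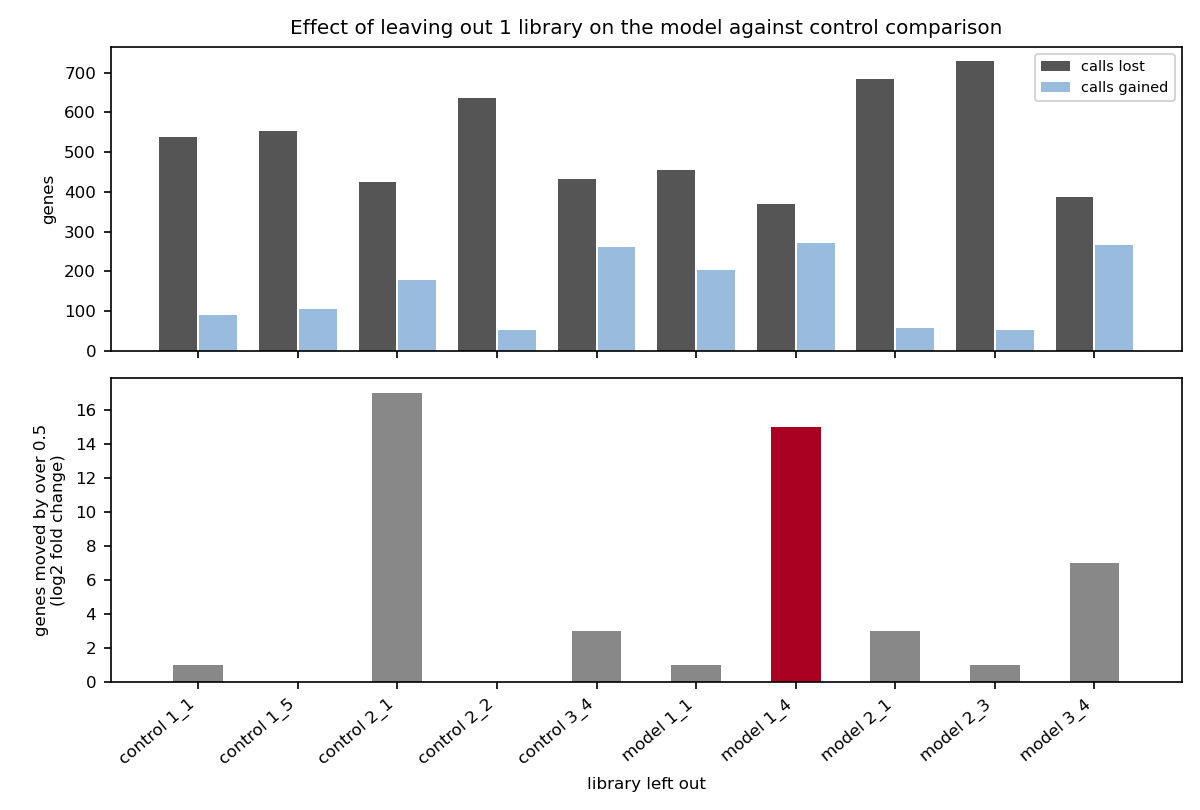
Calls lost and gained (upper panel) and genes whose log2 fold change moved by over 0.5 (lower panel) when each library was left out. Model 1_4 lost 369 calls, fewer than any other library, and moved 15 genes, next to 17 for control 2_1.

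Model 1_4 also differed from the other model livers in the opposite direction. It was the lowest of the 5 model livers for 31.2% of all genes, and for 57 of 60 nuclear-encoded respiratory chain genes (median difference from the mean of the other 4, -0.276 on the log2 scale). It was lowest for 27 of 36 genes of fatty acid oxidation (-0.335), 29 of 42 conjugation enzymes (-0.51) and 20 of 31 proteasome genes (-0.118). Over all genes tested that median difference was -0.0296. FPKM are scaled to all fragments of a library, of which acute-phase genes took 9.97% in 1_4. The part of that share in these differences was not tested. G6pc, the glucose-6-phosphatase gene, was at 135, 122, 138, 162 and 174 FPKM in control and 123, 12.8, 51.0, 44.9 and 77.1 FPKM in model livers, and fell by 1.54 with and 1.07 without 1_4. G0s2, which encodes an inhibitor of adipose triglyceride lipase, was at 119, 29.7, 163, 138 and 215 FPKM in the model livers and 93.6, 110.4, 35.6, 73.7 and 90.8 FPKM in the control livers. It was not called with 1_4 (log2 fold change 0.56, adjusted p = 0.367) and was called without it (1.02, adjusted p = 0.0181). Nr0b2, the bile acid induced repressor SHP, was at 6.96, 5.31, 7.89, 5.83 and 4.28 FPKM in control and 11.6, 3.66, 21.7, 17.0 and 18.7 FPKM in model livers, and the fold change of 0.98 (adjusted p = 0.0504) became 1.36 (adjusted p = 0.000353) without 1_4. In 13 of the 56 lists with at least 5 tested members model 1_4 moved the median more than any other library did, as control 3_4 did in 14.

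Most tested markers of lipid-associated and monocyte-derived macrophages and of neutrophils were highest in model 1_4 among the model livers. Of 14 tested markers of lipid-associated and monocyte-derived macrophages, 9 rose and 1 fell, with a median of 0.83, and 0.56 without model 1_4 (again 9 and 1). Model 1_4 was the highest model liver for 13 of the 14, as it was for 20.9% of all genes tested. Their summed level was 251 to 446 FPKM in control livers, 303 to 435 in the other model livers and 732 in 1_4, where Spp1 alone gave 251.8. Cd63, a lysosomal tetraspanin, rose from 2.96 ± 0.503 to 7.61 ± 2.14 FPKM. The member that fell was Fabp5. Of 12 resident Kupffer cell markers 2 rose, Marco and Id3, where 29.1% of all genes rose. Their median was 0.10, near that of all genes, and 1_4 was the highest model liver for 5 of the 12. Cd5l was at 84.4, 105, 115, 113 and 83.1 FPKM in control and 88.6, 166, 122, 110.3 and 113 FPKM in model livers and was not called (adjusted p = 0.241). In whole-liver RNA more cells of a type and more RNA per cell cannot be told apart.

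Of the 6 tested neutrophil markers 5 rose (S100a8, S100a9, Retnlg, Csf3r and Hp). Without model 1_4, S100a8 and Hp rose and Il1b fell. Members called numbered 1 without control 1_1 or 2_2, 2 without control 1_5 or 3_4 or model 2_1, 3 without model 2_3, and 2 with either rescaling. That list contains Hp, which hepatocytes make, and its sum (9580 FPKM in 1_4, 2590 to 3610 in the other model livers) is almost all Hp. S100a8, a calprotectin subunit, was at 0.848, 2.02, 14.5, 1.31 and 0.360 FPKM in control and 4.20, 32.4, 10.8, 11.3 and 11.2 FPKM in model livers. It was high in control 2_1 and in model 1_4. The log2 fold change of S100a8 was 2.03 (adjusted p = 0.0227), 1.68 without model 1_4 and 2.62 without control 2_1. The call was lost without control 1_1 (1.85, adjusted p = 0.0536), 2_2 (1.93, 0.0509) or 3_4 (1.74, 0.0523). It was also lost with no filter (adjusted p = 0.057) and under robust eBayes (0.0553). Without model 1_4 it was lost under a block on the first digit of the replicate number (1.55, adjusted p = 0.0513). Granulocyte genes below the filter peaked in different libraries. Cxcr2, Mmp8 and Mmp9 were highest in model 1_4, at 1.24, 0.652 and 0.668 FPKM, against at most 0.316, 0.201 and 0.419 in any other library. Camp, Mpo, Elane and Ngp were highest in model 3_4, at 1.98, 0.703, 0.689 and 3.35 FPKM, against 0.0453, 0.0959, 0.265 and 0.631 in 1_4. Ly6g was highest in control 2_1, at 0.354 FPKM, and at 0.0579 in 1_4. The part of these cells in the acute-phase values was not tested.

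The medians of the interferon, chemokine and STAT3 and NF-kappa-B lists moved less than the acute-phase median when that liver was left out. Of 24 interferon-stimulated genes 17 rose and 1 fell (median 0.54), and the counts were the same without model 1_4. Isg15, an ubiquitin-like interferon product, was at 5.71, 7.03, 7.35, 7.56 and 3.89 FPKM in control and 14.0, 20.1, 17.3, 10.9 and 11.9 FPKM in model livers, without overlap (log2 fold change 1.11 ± 0.18, adjusted p = 0.000913). Bst2, the tetherin gene, was the member that fell (144 ± 17.4 to 106 ± 11.9 FPKM). Of 13 chemokine genes 8 rose and 1 fell (median 0.50), and 7 rose and 1 fell without model 1_4 (median 0.40). For 8 of the 13, 1_4 was the highest model liver. Ccl2, which draws monocytes, was at 0.619, 0.947, 0.994, 0.301 and 0.386 FPKM in control and 6.49, 8.24, 3.67, 4.83 and 1.88 FPKM in model livers, where 1_4 was highest and 3_4 lowest (1.78, 1.60 without 1_4). Cxcl12 fell from 62.8 ± 5.61 to 48.4 ± 3.05 FPKM. Of 18 genes of STAT3 and NF-kappa-B signalling 10 rose and 0 fell, with or without model 1_4 (median 0.46, 0.39 without it). Leaving out 1_4 moved that median more than any other library did, and 1_4 was the highest model liver for 13 of the 18. Those that rose included Stat3 itself (0.47, 0.34 without 1_4, not called with median-ratio scaling at 0.32 or quantile scaling at 0.364) and the interleukin-1 receptor gene Il1r1 (0.89, 0.72).

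Protein folding genes of the ER were higher in the model, whether or not 1_4 was counted. Of 33 tested members of the list of ER chaperones and the unfolded protein response 24 rose and 0 fell, with a median of 0.74 with and 0.73 without model 1_4. Median-ratio scaling left 21 higher and 0 lower. Hspa5 encodes the ER chaperone BiP (chromosome 2, 34771970 to 34777547) and was at 250.3, 231, 336, 324 and 270.1 FPKM in control and 992, 883, 618, 714 and 1004 FPKM in model livers. The lowest model liver was well above the highest control (log2 fold change 1.56 ± 0.15, adjusted p = 4.81e-05). Derl3, part of the channel that returns misfolded proteins to the cytosol (chromosome 10, 75893413 to 75895941), was at 0.412, 0.527, 1.32, 0.762 and 0.252 FPKM in control and 10.8, 13.7, 6.29, 11.8 and 13.7 FPKM in model livers (2.88 ± 0.20, adjusted p = 9.39e-06). The promoter windows of both are printed because they hold the ER stress response element, in capitals; it is on the given strand in Hspa5 and on the opposite strand in Derl3.
Hspa5, chr2:34771840-34772089, plus strand: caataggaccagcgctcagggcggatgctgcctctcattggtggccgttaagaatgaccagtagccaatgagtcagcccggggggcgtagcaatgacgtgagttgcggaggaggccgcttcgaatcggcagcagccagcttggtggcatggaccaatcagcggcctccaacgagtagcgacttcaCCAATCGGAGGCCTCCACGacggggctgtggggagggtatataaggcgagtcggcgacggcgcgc
Derl3, chr10:75893148-75893397, plus strand: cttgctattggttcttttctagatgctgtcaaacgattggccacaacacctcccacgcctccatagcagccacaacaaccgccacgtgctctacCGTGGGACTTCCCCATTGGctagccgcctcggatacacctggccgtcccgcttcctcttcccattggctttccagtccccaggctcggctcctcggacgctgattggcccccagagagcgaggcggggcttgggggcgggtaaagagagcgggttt
The element, CCAAT and CCACG with 9 bases of any kind between, to which ATF6 and XBP1 are known to bind with NF-Y, was found on either strand in 10 of 28 genes of the list with a RefSeq window (35.7%), against 0.13% of 27025 genes. The 10 were Calr, Canx, Creld2, Derl3, Dnajc3, Ero1b, Hsp90b1, Hspa5, Pdia6 and Syvn1, and 9 of them, but not Ero1b, rose. The list was written from general knowledge of genes induced by these factors, so that share describes the list.

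The integrated stress response is the arm that acts through ATF4 and CHOP. Here 10 of 14 tested genes rose and 0 fell (median 0.94), and 8 rose without model 1_4 (median 0.81). Atf5 was at 65.5, 56.3, 80.8, 74.6 and 103 FPKM in control and 214, 162, 197, 183 and 234 FPKM in model livers, without overlap (1.39, adjusted p = 8.28e-05). Ddit3, which encodes CHOP, was at 2.22, 2.45, 2.64, 4.52 and 2.5 FPKM in control and 22.4, 9.01, 5.71, 6.91 and 8.33 FPKM in model livers, with model 1_1 far above the others. Atf4 itself was tested and not called. The composite C/EBP-ATF motif TGATGNAA was in the window of 7 of the 20 listed genes (35.0%, against 3.91% of all genes). Of the 7, 4 rose (Atf3, Chac1, Fgf21 and Nupr1), while Asns, Slc7a11 and Vldlr did not pass the filter and were not tested. Cdkn1a, which encodes the cell cycle inhibitor p21, was at 1.21, 1.12, 0.936, 1.15 and 2.58 FPKM in control and 27.7, 13.4, 7.37, 10.4 and 18.3 FPKM in model livers (2.68 ± 0.29, adjusted p = 7.74e-05).

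Protein breakdown and protein synthesis genes moved in different directions. Of the 31 proteasome genes 28 rose and 0 fell, 25 of them without overlap, where 19.0% of all genes were higher without overlap. Without model 1_4, 30 rose. Psmd14, the deubiquitinating subunit of the lid, was at 21.3, 23.6, 20.6, 20.6 and 19.7 FPKM in control and 37.4, 34.3, 36.5, 38.0 and 37.4 FPKM in model livers (0.77 ± 0.06, adjusted p = 2.16e-05). The median of the list was 0.37, and median-ratio scaling left 16 rises and 0 falls. Of 73 cytosolic ribosomal protein genes 0 rose and 33 fell (median -0.25), 10 of them without overlap, as were 5.11% of all genes that were lower in the model. The falls numbered 22 without model 1_4 and 67 with median-ratio scaling, but other libraries weighed more: 7 members were called without model 2_3, 8 without control 1_5, control 2_2 or model 1_1, 11 without model 2_1 and 16 without control 1_1. A block on the 6 libraries that share replicate numbers called 0. Rpl28 was at 665, 749, 619.9, 732 and 726 FPKM in control and 549, 582, 535, 546 and 600.4 FPKM in model livers, without overlap (-0.31 ± 0.08, adjusted p = 0.0107). Of 25 cytosolic heat-shock genes 11 rose and 1, Dnajb4, fell (5 and 2 with median-ratio scaling, and 7 called without model 2_3), and Hspb1, a small heat-shock protein, was at 28.6, 28.2, 26.8, 35.9 and 40.7 and 117, 56.4, 43.1, 75.8 and 88.1 FPKM (1.16). Of 27 antioxidant and NRF2 target genes 15 rose and 1, Prdx4, fell (9 and 1 with median-ratio scaling), led by Srxn1, the sulfiredoxin that repairs peroxiredoxins, at 6.56, 6.34, 8.17, 6.47 and 6.31 and 23, 26.0, 22.8, 20.5 and 13 FPKM (1.48, adjusted p = 6.39e-05).

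Genes that take up and store fatty acids rose while those that make them fell. Of 27 genes of lipid droplets and fatty acid uptake 16 rose and 2, Fabp5 and Pnpla2, fell (median 0.60, 0.64 without model 1_4). Of 5 tested adipocyte markers 3 rose, Cfd among them, and 1, Pnpla2, fell. Their median was 0.998, 0.788 without model 1_4 and 1.27 without control 2_1, which moved it most. The summed level of the listed markers was 89.8 FPKM in control 2_1 and at most 58.8 in the other controls. The adipocyte hormone genes Adipoq and Lep, of the same list, did not pass the filter. They were at no more than 1.525 FPKM (Adipoq, in control 2_1) and 0.1345 FPKM (Lep, in model 2_3) in any library. Cd36, the fatty acid transporter on chromosome 5 (17781690 to 17888801), was at 11.6, 12.0, 10.4, 8.31 and 7.79 FPKM in control and 87.9, 82.6, 92.2, 88.9 and 50.6 FPKM in model livers, lowest in 3_4 (2.87 ± 0.17, adjusted p = 2.42e-06). Plin2, which coats lipid droplets, was at 133, 173, 106, 146 and 242 FPKM in control and 249, 281, 266, 296 and 276 FPKM in model livers. Control 3_4 lay just below the lowest model liver (0.82, adjusted p = 0.00379). Of 24 genes of fatty acid synthesis and desaturation 11 fell and 4 rose, with a median of -0.54. Scd1, the stearoyl-CoA desaturase on chromosome 19 (44394455 to 44407879), was at 3528, 2525, 2431, 1716 and 2010 FPKM in control and 661, 829.7, 1000, 1275 and 321 FPKM in model livers, and Elovl6, which lengthens palmitate, at 37.1, 22.2, 24.9, 18.8 and 12.7 and 3.94, 4.56, 5.12, 6.16 and 3.06 FPKM (-2.06, adjusted p = 0.000102). Elovl3, Elovl5 and Insig2 were among those that rose.

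Fatty acid oxidation and ketogenesis had 16 of 36 genes higher and 0 lower (median 0.28), and 20 higher without model 1_4, but 8 higher and 3 lower with median-ratio scaling. Vnn1, the pantetheinase and a PPAR-alpha target, was at 25.4, 27.4, 16.1, 17.9 and 24.9 and 82.2, 88.5, 92.5, 106 and 70.7 FPKM, without overlap (1.95, adjusted p = 1.49e-05). Among sterol genes, Abcg5, a subunit of the transporter that exports sterols into bile, was at 42.2, 41.8, 41.6, 43.7 and 47.0 FPKM in control and 21.6, 17.8, 28.4, 23.6 and 20.2 FPKM in model livers (-0.94 ± 0.11, adjusted p = 9.68e-05). Of 29 genes of bile acid synthesis and transport 7 rose and 8 fell, where 29.1% of all genes rose and 8.02% fell. Of 25 of cholesterol synthesis and uptake 3 rose (Hmgcs1, Mvd and Srebf2) and 4 fell (Tm7sf2 and Stard4 among them), while 11 of the 25 were called without control 3_4. Slc10a1, the hepatocyte bile acid importer NTCP, fell from 380.4 ± 62.5 to 256 ± 33.9 FPKM, and Mvd, of the mevalonate pathway, rose from 1.38 ± 0.469 to 5.26 ± 1.57 FPKM.

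**Figure D4:**
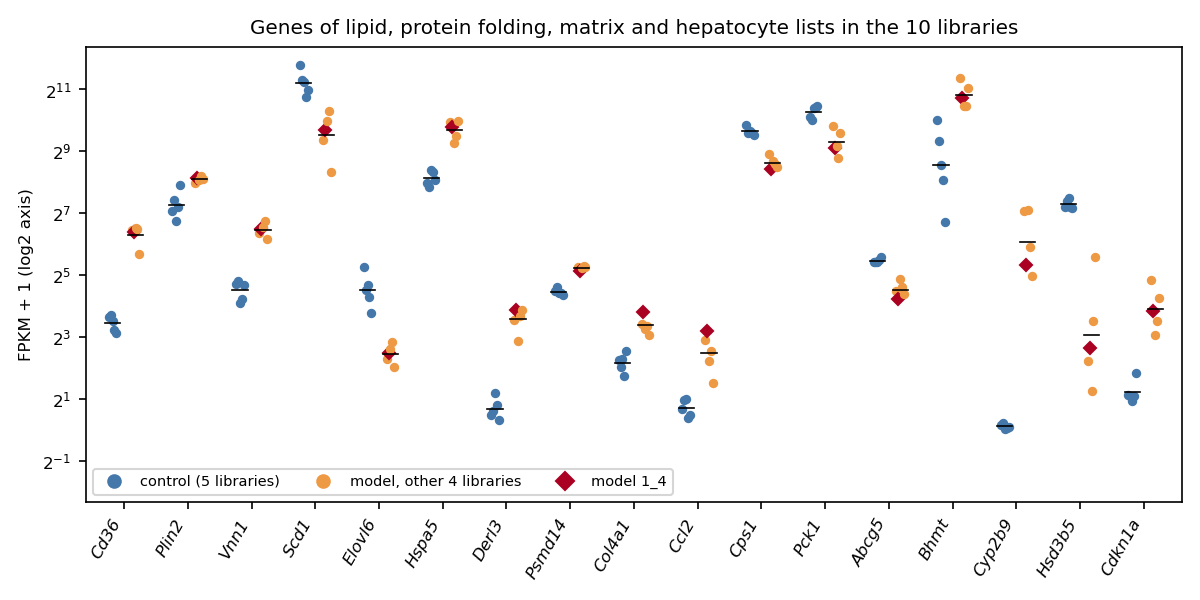
FPKM + 1 (log2 axis) of 17 genes named in the text in the 10 libraries, with bars at the means on the log2 scale. Control and model livers stand apart for these genes, and model 1_4 (diamonds) lies among the other model livers for most of them, unlike for the acute-phase genes.

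Matrix and stellate cell genes were higher, and their list medians changed little when model 1_4 was left out. Of 20 tested genes of collagen and matrix remodelling 11 rose and 0 fell (median 0.39), all 11 without overlap. Of all genes 29.1% rose and 19.0% were higher without overlap. Without model 1_4 the median was 0.36, and 11 rose and 1, Timp3, fell. That liver was nonetheless the highest model liver for 16 of the 20, where 20.9% of all genes tested were highest there. Summed over the listed genes, tested or not, the level was 646 FPKM in 1_4 and 403 to 499 in the other model livers. In control livers that sum was 390 to 487 FPKM, so the sums of the other model livers overlapped it. Col4a1, a basement membrane collagen, was at 3.82, 3.15, 3.88, 2.33 and 4.92 FPKM in control and 9.79, 13.2, 8.66, 9.19 and 7.41 FPKM in model livers, highest in 1_4 (1.21 ± 0.16, adjusted p = 0.000241, 1.10 without 1_4). Sparc, a collagen-binding matrix protein, rose from 20.7 ± 1.49 to 35.1 ± 5.21 FPKM. Of 17 hepatic stellate cell markers 14 rose and 0 fell (median 0.38), 12 without model 1_4 and 8 with median-ratio scaling. Dcn, the proteoglycan decorin, was at 97.8, 114, 92.0, 94.4 and 87.6 FPKM in control and 112, 138, 142, 139 and 129 FPKM in model livers, of which model 1_1 lay within the control values. Timp1 and Lox, of the same list as Col4a1, did not pass the filter. Of 22 sinusoidal endothelial markers 4 rose (Stab2, Lyve1, Pecam1 and Flt4) and 1, Bmp2, fell, where 29.1% of all genes rose and 8.02% fell. Median-ratio scaling gave 1 rise and 6 falls, and 2 were called without control 2_2 and 3 without model 2_3. Lyve1 was at 4.54, 5.06, 5.44, 2.97 and 5.49 FPKM in control and 13.1, 16.4, 12.1, 14.3 and 11.4 FPKM in model livers (1.35).

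Genes of hepatocyte function fell in part, by zone and by sex bias. Of 18 periportal genes 7 fell and 2, Ctsc and Apoa4, rose (median -0.28), and of 20 pericentral genes 9 rose and 1, Cyp1a2, fell (median 0.33). Cps1, the entry enzyme of the urea cycle (chromosome 1, 67123026 to 67231259), was at 925, 777, 799, 768 and 742 FPKM in control and 481, 346, 415, 387 and 360 FPKM in model livers, without overlap (-1.02 ± 0.10, adjusted p = 5.7e-05). Ass1, argininosuccinate synthase, fell from 1643 ± 305 to 939.8 ± 182 FPKM, while Rhbg, a pericentral ammonium transporter, rose from 2.12 ± 0.485 to 5.51 ± 0.922 FPKM. Bhmt, which remethylates homocysteine, was at 1042, 651, 373, 271 and 105 FPKM in control and 2674, 1673, 1406, 1427 and 2103 FPKM in model livers. The control values were widely spread, and control 1_1 was closest to the model (2.27, adjusted p = 0.00421). Pck1, of gluconeogenesis, was at 1098, 1037, 1340, 1388 and 1404 and 909.9, 549, 579.5, 439 and 775 FPKM (-0.98). Alb was at 46210, 41990, 46280, 47050 and 50920 FPKM in control and 39800, 21140, 37440, 27870 and 36890 FPKM in model livers, with 1_4 lowest (-0.55, -0.40 without 1_4). That call was lost without control 1_1, 2_1, 2_2 or 3_4 (adjusted p between 0.0681 and 0.0784) and without model 2_3 (0.0882). It was also lost with no filter (0.479) and under a block on the first digit of the replicate number (0.0674). Quantile scaling gave a difference of 0, but it gives genes of equal rank equal values, so it cannot test this call.

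Of 24 genes that male mouse livers express more than female ones 17 fell and 1, Elovl3, rose (median -0.84, -0.87 without model 1_4). Hsd3b5, a steroid dehydrogenase (chromosome 3, 98618634 to 98630252), was at 145, 169, 181, 146 and 143 FPKM in control and 3.74, 5.35, 1.39, 10.5 and 47.6 FPKM in model livers. Model 3_4 was the highest of the model group, and the others were at 10.5 FPKM or less. Mup7, a major urinary protein, was at 3468, 3789, 5031, 2242 and 4144 and 825, 637, 165, 837 and 5008 FPKM, and model 3_4 was close to the highest control (-2.14, adjusted p = 0.0255). That call was lost without control 2_1 (-2.02, adjusted p = 0.052), with no filter (0.0624) and under robust eBayes (0.059). Mup genes are near-identical copies and their separate values are uncertain. Cyp2b9, a female-biased P450 (chromosome 7, 26173411 to 26210661), was at no more than 0.183 FPKM in control livers and at 134, 39.0, 137, 58.9 and 30.4 FPKM in model livers, lower in 1_4 and 3_4. Of 9 tested female-biased genes 4 rose (Cyp2b9, Cyp2a22, Cyp2c39 and Abcd2) and 0 fell, and 16 of the 25 listed did not pass the filter. Lepr, the leptin receptor gene, fell from 5.24 ± 2.42 to 0.552 ± 0.145 FPKM, and Igfbp2, an IGF-binding protein, was at 263, 322, 293, 287 and 349 and 86.6, 29.5, 72.2, 53.2 and 135 FPKM (-2.15, -1.87 without 1_4).

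Clock genes differed between the groups, and since no time of collection is given, hour and diet cannot be told apart. Of 16 tested clock genes 7 fell and 2, Clock and Nr1d1, rose (median -0.33). Nr1d1, which encodes the repressor REV-ERB-alpha, was at 9.23, 9.72, 12.1, 8.67 and 15.2 FPKM in control and 31.5, 20.7, 38.3, 32.8 and 25.2 FPKM in model livers (1.35, adjusted p = 0.000204). Tef, a clock-controlled transcription factor, was at 27.5, 26.6, 30.8, 28.6 and 24.5 and 12.2, 16.3, 22.8, 20.6 and 14.6 FPKM (-0.67, adjusted p = 0.00381). Neither pair of groups overlapped.

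**Figure D5:**
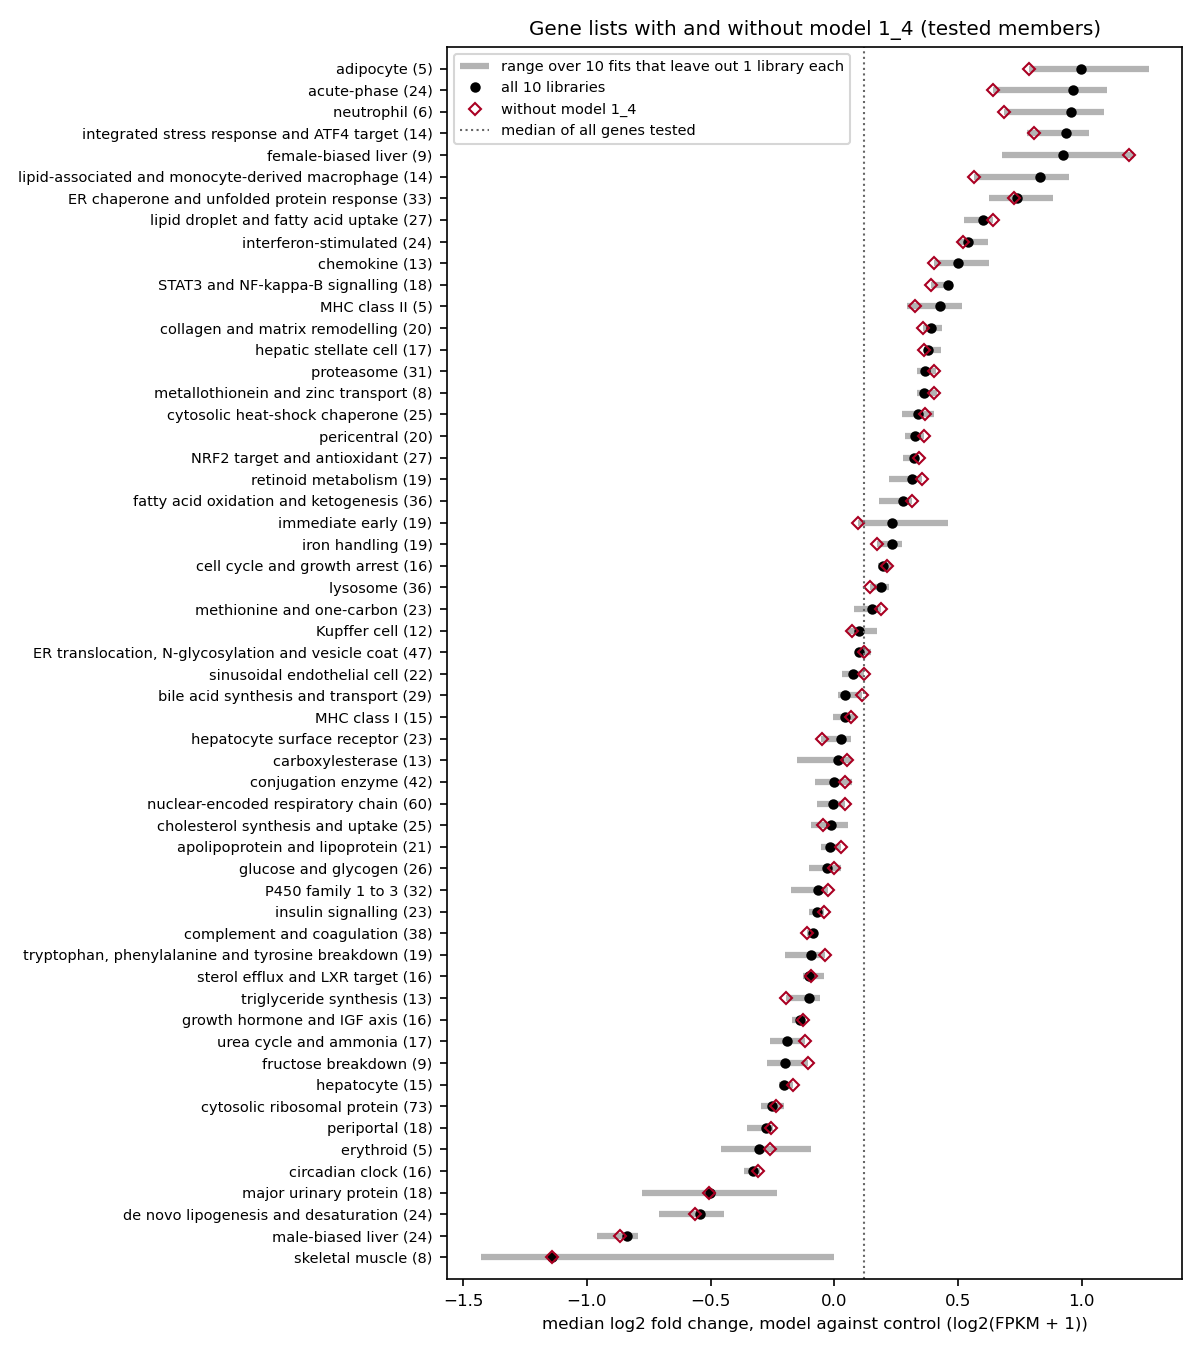
Median log2 fold change of each list with at least 5 tested members (number in brackets) with all 10 libraries (dots), without model 1_4 (diamonds) and over the 10 fits that leave out a library (grey bars); the dotted line is the median of all genes, 0.119. The acute-phase, neutrophil and macrophage lists lie lower without model 1_4, the ER chaperone, proteasome and collagen lists hardly move, and the skeletal muscle list hangs on control 2_1.

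The library control 2_1 bore on a different set of genes. Leaving it out moved 17 genes by over 0.5, among them all 8 tested skeletal muscle markers, and S100a8 and S100a9. The muscle list had a median of -1.14, with 0 of 8 members called, and of -0.00217 without that library. Its summed level was 489 FPKM in control 2_1 and at most 1.9 FPKM in the model livers. The adipocyte median was 0.998 with control 2_1 and 1.27 without it. The acute-phase median was 0.96 with and without it.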

How the data were processed

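Liver RNA of 5 control and 5 model mice was extracted with TRIzol and made into libraries with the VAHTS Universal V6 kit, per the labels' protocols, which do not state a strand setting. Each library has a column of FPKM that the authors deposited; fastp, HISAT2, HTSeq, DESeq2 and the build mm10 are listed in the submitters' processing notes, with no versions, roles or annotation. Fragment totals were read from the FPKM values, since those of a gene are multiples of 1 fragment's worth, and the recovered counts made up at least 99.969% of each total. Counts so recovered were used only in an alternative test. In 20 pairs of libraries within a group, chi-square per gene was 30.9 to 358, where sampling noise gives 1, so no library repeated another.

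The 9498 of 17527 genes whose mean over the 10 libraries reached 1 FPKM were tested on log2(FPKM + 1) in R 4.3.3 by limma 3.58.1 with statmod 1.5.0, as 2 group means with 8 residual degrees of freedom, eBayes with trend=TRUE and Benjamini-Hochberg adjustment over all genes; a call is an adjusted p under 0.05. The procedure was tested on simulated data. The weight of a library is the change when it alone is left out. Other steps ran in Python 3.11.15 (pandas 2.3.3, matplotlib 3.10.9, numpy 2.4.6, scipy 1.17.1). Positions are from GENCODE M21 (GRCm38) and promoter windows from RefSeq (GRCm38.p6), whose starts can differ.

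The groups, the 47 lists of gene function and 13 of cell types, and the genes named were chosen with earlier results of these data known. Named by rule were the most abundant and the most changed called member of each list with at least 3 called members (for a marker list with fewer, the most abundant tested member), the 8 largest rises and falls without overlap, the 8 genes highest and lowest in model 1_4 against the other model livers, all acute-phase genes, Scd1, Cd36, Hspa5 and Hsd3b5. The members behind counts of 5 or fewer, genes below the filter, genes with a motif, Spp1, Prtn3, Myc, S100a9, Retnlg, Csf3r, Il1b and Atf4 were named after their values were seen. A few genes that these rules take are not reported here. Alternatives were other scalings (TPM, median-ratio, quantile), a pseudocount of 0.1, no filter or one at 5 FPKM, other eBayes settings, library weights, a 3-group fit, a fold minimum, replicate blocks and each library left out. Added after the values were seen were voom on recovered counts, 2 libraries left out together, acute-phase fragments left out of the scale, and model 1_4 left out with a block.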

Additional observations from a re-analysis of the deposited data

Results flagged for a closer look

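Among 131 of the genes that the naming rule took, each group's 5 FPKM values were searched for a highest or lowest value far from the other 4 (gap to the nearest value over 0.71 of the range). Of 262 gene and group pairs 35 were so marked, where chance marks about 1 in 20 if values are normally distributed. FPKM without logarithms need not be so, and all but 1 of the marks were high values, so that rate may not apply. The genes were partly chosen for being high in model 1_4, which is the marked library in 22 of the 35.

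In model 1_4 the acute-phase genes stood high: Hp at 9493, Lcn2 at 2236, Saa2 at 14970, Saa1 at 9049, Orm2 at 632, Saa3 at 76.2, Apcs at 658, Hpx at 8856, Orm1 at 4372, Orm3 at 10.9, Itih3 at 958, Itih4 at 3492, Serpina3n at 1591, Steap4 at 391 and Cd14 at 6.71 FPKM. For each of them the other 4 model livers lay far closer together, such as 61.6 to 194 FPKM for Saa2 and 19.4 to 92.3 FPKM for Lcn2. The other genes marked high there were Mt2 at 853, Gadd45g at 43.3, Fabp5 at 36.6, S100a8 at 32.4, LOC118568312 at 7715, Lars2 at 318 and Mt1 at 617 FPKM.

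Outside model 1_4, the high values, in FPKM, were Il1r1 at 8.56 in control 1_1, Ddit3 at 4.52 in control 2_2, Ddit3 at 22.4 in model 1_1, Srxn1 at 8.17 in control 2_1, Hsd3b5 at 47.6 in model 3_4, Mup7 at 5008 in model 3_4, Gadd45g at 141 in control 3_4, Cdk4 at 22 in model 2_1, Cdkn1a at 2.58 in control 3_4, S100a8 at 14.5 in control 2_1, Acta1 at 120.3 in control 2_1 and Tff3 at 24 in control 1_5, and the low value was Cd36 at 50.6 in model 3_4. For Cdk4 the 4 other values of that group lay between 21.7 and 21.8 FPKM. The 3 values of model 3_4 (Cd36 low, Hsd3b5 and Mup7 high) all lay toward the control levels.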

How the results depend on the processing

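The count of called genes, 3529 (2767 higher, 762 lower), stayed within 1.5 times under every scaling, eBayes setting and single library left out (2852 to 3430 without a library; 2169 to 2722 higher and 600 to 787 lower). It moved to 2142 (1634 higher) with a filter at 5 FPKM, which tests 5509 genes, and to 258 (180 and 78) with a fold minimum. The split moved to 1418 higher and 1659 lower with median-ratio scaling and to 1465 and 1602 with quantile scaling, both of which centre the genes by construction. With no filter, 16796 genes were tested and 3797 called.

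What the replicate numbers stand for is not given. Libraries with the same number in both groups correlated at -0.0998, 0.0233 and 0.0199 in their deviations, and 0 of 6 correlated best with their own number. Pairs that share the first digit correlated at -0.159 to 0.175. Not all correlations were over 0.1, so the numbers were not taken to pair the livers. A replicate block on the 6 libraries with shared numbers called 1120 genes (868 higher, 252 lower), and a block on the first digit of all 10 called 3685. The 6 libraries do not include model 1_4.

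Leaving out model 1_4 moved 15 fold changes by over 0.5; control 2_1 moved 17, model 3_4 moved 7, control 3_4 and model 2_1 moved 3 each, control 1_1 and model 1_1 and 2_3 moved 1 each, and control 1_5 and 2_2 moved 0. The acute-phase list had 11 to 16 members called (10 with median-ratio scaling) and a median between 0.641 and 1.1 over the 10 fits with a library left out. Of 110 called named genes 76 kept the call under all 25 alternatives compared, and 34 lost it under at least 1; the fold minimum and the block of 6 libraries were not among the 25.

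Some uncalled fold changes changed sign, each near 0 or in genes high in 1_4. The log2 fold change of Orm1 ranged from -0.212 (without 1_4) to 0.503 with a library left out, and went to -0.194 without control 2_1 as well, -0.21 without 1_4 under the first-digit replicate block and -0.414 under the block of 6. Fgb ranged from -0.0536 (without 1_4) to 0.229, and went to -0.0203, -0.0785 and -0.232 under those settings and to -0.0195 with median-ratio scaling. Under the block of 6, Hpx was at -0.0592, Itih3 at -0.0608, Fga at -0.0725, Fgg at -0.0999, Crp at -0.0131 and Cd14 at -0.17; Cd14 was at -0.00727 without 1_4 under the first-digit block and Crp at -0.0205 with median-ratio scaling. The log2 fold change of Gsta2 went to -0.022 with median-ratio and -0.00193 with quantile scaling, and to -0.0162 without model 1_1, in a range of -0.0704 (without model 2_1) to 0.472. The log2 fold change of Jchain went to 0.00376 without model 1_1, in a range of -0.221 to 0.0236 (without control 1_5). The cause of these changes was not tested. A fragment in a gene of 1 kilobase is 0.0261 to 0.0283 FPKM, so values below that rest on single fragments.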

Other observations

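Several genes whose values per library are not given above had some of the widest differences. Phospho1, which encodes a phosphatase of phosphocholine, was at 1.35, 2.04, 2.91, 1.88 and 2.09 FPKM in control and 31.9, 22.2, 19.1, 21.5 and 17.1 FPKM in model livers (log2 fold change 2.93, adjusted p = 2.42e-06 by limma), and leaving out model 1_4 gave 2.92. Ly6d was at 1.20, 1.30, 2.999, 0.859 and 1.64 FPKM in control and 19.4, 64.2, 16.9, 30.9 and 5.98 FPKM in model livers, with 1_4 highest (3.14, 2.75 without it). Cfd, which encodes the complement factor adipsin, was at 1.65, 0.236, 5.09, 0.468 and 0.429 FPKM in control and 49.2, 39.0, 13.9, 37.8 and 5.92 FPKM in model livers (3.51, 3.33 without 1_4). Ppp1r3c, a glycogen-targeting phosphatase subunit, was at 2.97, 3.54, 5.65, 4.58 and 1.96 and 29.3, 9.31, 22.3, 16.9 and 34.1 FPKM (2.23, 2.499 without 1_4).

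Among the falls, Cnmd, the chondromodulin gene, was at 10.7, 11.1, 8.97, 8.72 and 5.4 FPKM in control and 1.17, 0.683, 1.59, 1.45 and 1.20 FPKM in model livers, without overlap (-2.15, adjusted p = 1.49e-05). Cib3 was at 8.40, 5.34, 4.82, 7.09 and 3.53 and 0.421, 0.874, 0.0730, 0.441 and 0.259 FPKM (-2.25, adjusted p = 2.46e-05). Tff3, a trefoil factor, was at 9.55, 24.0, 7.84, 5.18 and 6.48 and 0.742, 1.66, 0.771, 0.538 and 4.39 FPKM, with control 1_5 and model 3_4 high within their groups (-2.13). Acmsd, of tryptophan breakdown, was at 8.02, 5.95, 9.60, 6.04 and 5.24 and 1.52, 1.20, 1.30, 1.59 and 2.36 FPKM (-1.61, adjusted p = 3.98e-05).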
